A study of Mus musculus with 8 samples.

Results

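White adipocytes store fatty acids as triglyceride in a lipid droplet and release them again between meals. The nuclear receptor Pparg and the factor Cebpa switch on their genes during differentiation, and mature cells secrete hormones such as adiponectin and leptin. The mouse mammary gland is embedded in a fat pad of such cells, so a tumour grown there lies next to adipocytes. Here 39 genes of adipocyte identity and lipid storage were described in whole mammary tumours with and without suppression of miR-21. The list holds 39 of the 27179 genes in the count table. It was chosen on results of this same comparison, so the counts, fold changes and calls of its genes describe the difference and do not test it.

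The comparison was of 4 vector control (VC) tumours and 4 miR-21-KD (KD) tumours, with 1 tumour per library. All of them came from 4T1.13, a mouse mammary carcinoma line that metastasises. All 8 tumours grew from 100000 cells placed in the mammary fat pad of female BALB/c mice and were labelled day 14, whereas the study's text gives an earlier day. The miR-21-KD line carried the miArrest lentiviral vector, whose H1 promoter drives an RNA that binds mature miR-21 and keeps it from its targets. The VC line carried a control vector with a scrambled RNA. Each line was a pool of single-cell clones, and the mice were young adults. The vector was carried by the injected cells and not by the mice or their fat pad. Between 12134849 and 13592695 reads were counted on genes per tumour, and a count of 0 allows up to 0.221 to 0.245 CPM (read counts relative to library size), counting error only. The labels do not say more on how the 4 tumours of a group were obtained, so p-values measure the spread between these tumours.

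The mature sequence of the targeted miRNA, mmu-miR-21a-5p (RefSeq, GRCm38.p6, chr11:86584120-86584141, minus strand), is shown with its seed, bases 2 to 8, in capitals, since the KD vector acts on it.
miR-21a-5p: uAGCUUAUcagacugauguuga
The total RNA libraries do not measure mature miRNAs, and the gene Mir21a had 0 counts in all 8 tumours, so the suppression could not be checked in these data. The DNA match to the seed, ATAAGCT, stood in the longest 3′ UTR (GENCODE M21) of 1030 of 13323 tested genes (7.73%), with a median UTR length of 1165 bases. It stood in those of 2 of the 39 listed genes, Acvr1c and Ppargc1a, which are shown because they were the ones with a match. In the sequences below, written 5′ to 3′, capitals mark the match.
Acvr1c (chromosome 2): tgttatgagtataagATAAGCTa
Ppargc1a (chromosome 5): gtagcccatcaaaatATAAGCTg
Both genes were too low to be tested. None of the 33 members that were tested held the match, at a median UTR length of 862 bases. A match of letters is a description and does not show a site, nor does the lack of a match say anything of binding elsewhere.

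Of the 39 genes, 33 had enough counts to be tested. In edgeR's quasi-likelihood fit of 14382 genes with Benjamini-Hochberg adjustment, 31 passed as higher in KD tumours (adjusted p under 0.05), against 19.6% of all tested genes. None was lower, against 19.5% of all tested genes, and none was lower at an unadjusted p under 0.05 or with DESeq2 or limma-voom. The remaining pair, Agpat2 and Cpt1a, did not pass. Every KD tumour was above every VC tumour for 26 of the 33, as for 16.3% of all tested genes. The rule used this contrast, so nothing is read from these shares. The log2 fold changes of the 33 ranged from -0.15 to 2.99 with a median of 1.95, beside a median of -0.01 over all tested genes. Of the 31 called, 16 had a log2 fold change above 2, 10 lay between 1 and 2 and 5 were at or below 1. Adig, Adrb3, Slc2a4 and Aqp7, 4 of the 33, were over the filter's level (0.793 CPM) in all KD tumours but not in all VC tumours. The VC tumours alone would not have had them tested, so their calls are not independent of the filter.

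DESeq2 and limma-voom also placed 31 of these genes higher, where 24.0% and 19.8% of all genes were higher. With a block for the replicate the count was 30, against 23.0% of all genes, and the gene lost was Fabp5. Without a filter on low counts all 39 were tested and 29 were higher, against 12.7% of all genes. At an adjusted p under 0.01 the edgeR count was 17, against 4.66% of all genes. Whole tumours were sequenced, so more adipocytes and more RNA of these genes per cell cannot be told apart.

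**Figure D1:**
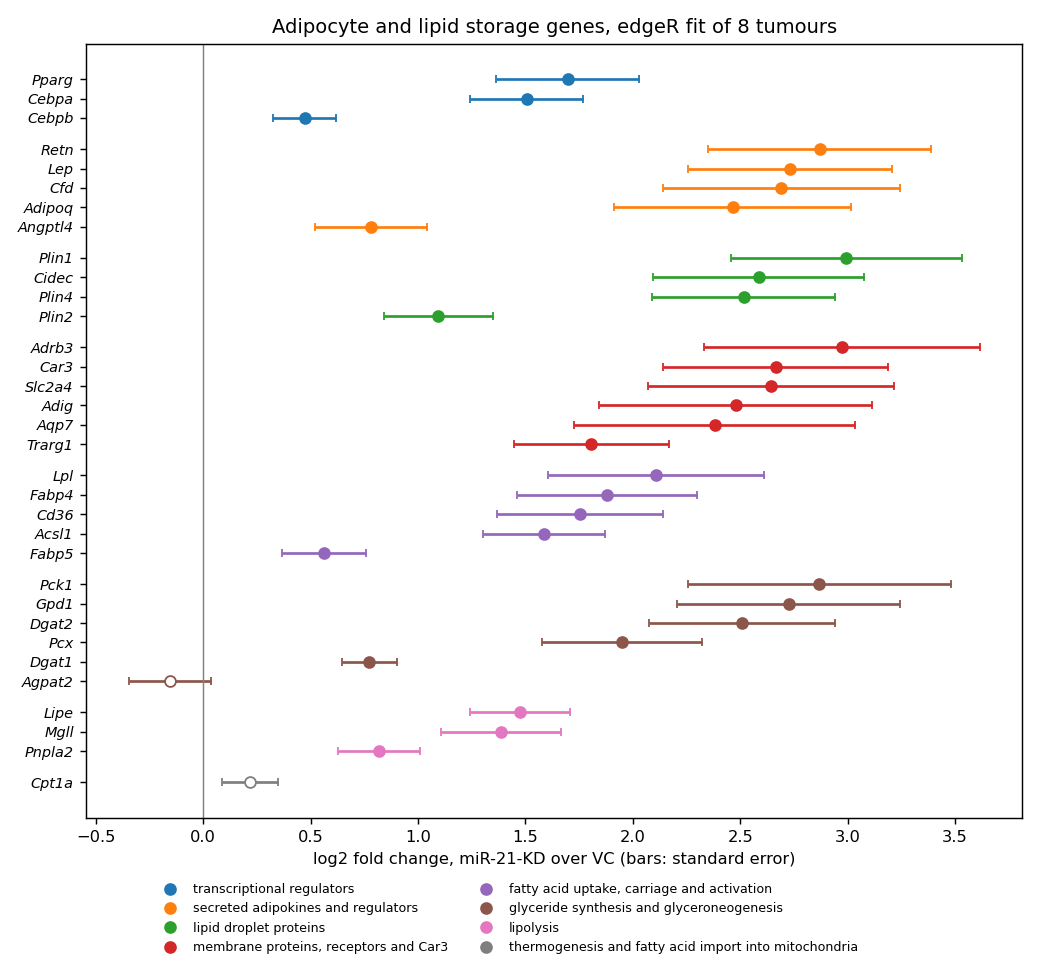
Log2 fold change of miR-21-KD over VC tumours (points) with its standard error (bars) for the 33 tested genes, grouped by role in colour, from the edgeR fit. Filled points passed an adjusted p of 0.05, open points (Agpat2, Cpt1a) did not, and values run from -0.15 to 2.99.

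Of the 4 transcriptional regulators, 3 were tested and all 3 were higher. Values are CPM on the scale of the TMM factors, given in order for VC tumours 1 to 4 (VC 1 to 4) and KD tumours 1 to 4. Pparg, the nuclear receptor that drives adipocyte differentiation (Entrez 19016, chr6:115360879-115490404, mm10), was at 8.19, 3.67, 3.07 and 4.50 CPM in VC 1 to 4 and at 17.5, 11.3, 13.5 and 20.9 CPM in KD 1 to 4. Cebpa, which sustains its expression, was at 26.4, 21.9, 21.3 and 34.6 CPM in VC 1 to 4 and at 79.8, 44.3, 67.6 and 104 CPM in KD 1 to 4. For both genes each of the KD tumours exceeded each of the VC tumours, and the log2 fold changes were 1.70 (SE 0.33) and 1.51 (SE 0.26). Cebpb, an early adipogenic factor that many other cells and the acute response also use, was at 60.8, 49.1, 60.4 and 51.9 CPM in VC 1 to 4 and at 57.6, 74.4, 87.9 and 88.2 CPM in KD 1 to 4. Its groups overlapped, since KD tumour 1 lay below VC tumours 1 and 3. The log2 fold change of Cebpb was 0.47 (SE 0.15), with an adjusted p of 0.0336 in edgeR and 0.0105 to 0.0951 over the alternatives. The call was lost without VC tumour 2, 3 or 4 and without KD tumour 3 or 4, at log2 fold changes of 0.40 to 0.51, and without a filter on low counts (adjusted p = 0.0513, edgeR). Ppargc1a, a coactivator of oxidative metabolism, had counts of 4, 0, 3 and 1 in VC and 17, 3, 15 and 20 in KD tumours and was under the filter.

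All 5 secreted proteins were higher. Adipoq, the adipocyte hormone adiponectin (Entrez 11450, chr16:23146536-23157968), was at 28.02, 5.42, 10.01 and 13.3 CPM in VC 1 to 4 and at 73.3, 34.6, 65.3 and 141 CPM in KD 1 to 4, a log2 fold change of 2.46 (SE 0.55). The lowest KD tumour, number 2, was above the highest VC tumour, number 1. Lep, the satiety hormone leptin, was at 4.94, 1.12, 1.34 and 2.86 CPM in VC 1 to 4 and at 15.1, 12.1, 15.5 and 25.9 CPM in KD 1 to 4. Retn, resistin, was at 6.71, 2.07, 2.44 and 4.25 CPM in VC 1 to 4 and at 27.3, 12.6, 21.02 and 52.8 CPM in KD 1 to 4. These hormones had log2 fold changes of 2.73 (SE 0.47) for Lep and 2.87 (SE 0.52) for Retn, with no overlap between groups. Cfd, adipsin or complement factor D, was at 88.9, 16.04, 39.7 and 42.4 CPM in VC 1 to 4 and at 298, 154, 218 and 540 CPM in KD 1 to 4, a log2 fold change of 2.69 (SE 0.55). The group means of Cfd were 46.8 ± 30.5 and 302 ± 169 CPM (SD, n = 4), so its spread within a group was wide. Angptl4, a secreted inhibitor of lipoprotein lipase that hypoxic tumour cells also make, was at 172, 65.3, 101 and 88.7 CPM in VC 1 to 4 and at 172, 173, 212 and 177 CPM in KD 1 to 4. VC tumour 1 stood apart from the other VC tumours and came close to KD tumours 1, 2 and 4, just under all of them. The log2 fold change of Angptl4 was 0.78 (SE 0.26) with an adjusted p of 0.0433 in edgeR and 0.00613 to 0.104 over the alternatives. Its call was lost without any single tumour other than VC tumour 1, at log2 fold changes of 0.60 to 0.81, and without a filter on low counts (adjusted p = 0.0624, edgeR).

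Of the 6 lipid droplet proteins, 4 were tested and all 4 were higher. Plin1, perilipin 1, which coats adipocyte droplets and gates lipolysis (Entrez 103968, chr7:79721164-79732904), was at 6.27, 1.44, 2.13 and 4.17 CPM in VC 1 to 4 and at 24.4, 12.9, 25.1 and 49.8 CPM in KD 1 to 4. Its log2 fold change was 2.99 (SE 0.54), close to the 2.97 of Adrb3. Cidec, which fuses droplets into a large one, was at 30.2, 6.30, 13.4 and 12.6 CPM in VC 1 to 4 and at 96.03, 52.3, 74.8 and 153 CPM in KD 1 to 4. Plin4, a perilipin of adipocytes, was at 25.9, 5.90, 9.85 and 12.1 CPM in VC 1 to 4 and at 61.7, 54.9, 87.2 and 104 CPM in KD 1 to 4. Both were separate between groups, with log2 fold changes of 2.59 (SE 0.49) for Cidec and 2.52 (SE 0.43) for Plin4. Plin2, the droplet coat found in most cell types, was at 305, 202, 232 and 351 CPM in VC 1 to 4 and at 634, 351, 593 and 752 CPM in KD 1 to 4. Its lowest KD tumour did not exceed VC tumour 4, and the log2 fold change was 1.10 (SE 0.26). Plin5, a perilipin of oxidative tissues, had 1, 2, 1 and 5 counts in VC and 9, 4, 6 and 7 in KD tumours. Cidea, a droplet protein of brown and beige fat, had 4, 0, 1 and 0 against 8, 2, 4 and 31. Both were under the filter.

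**Figure D2:**
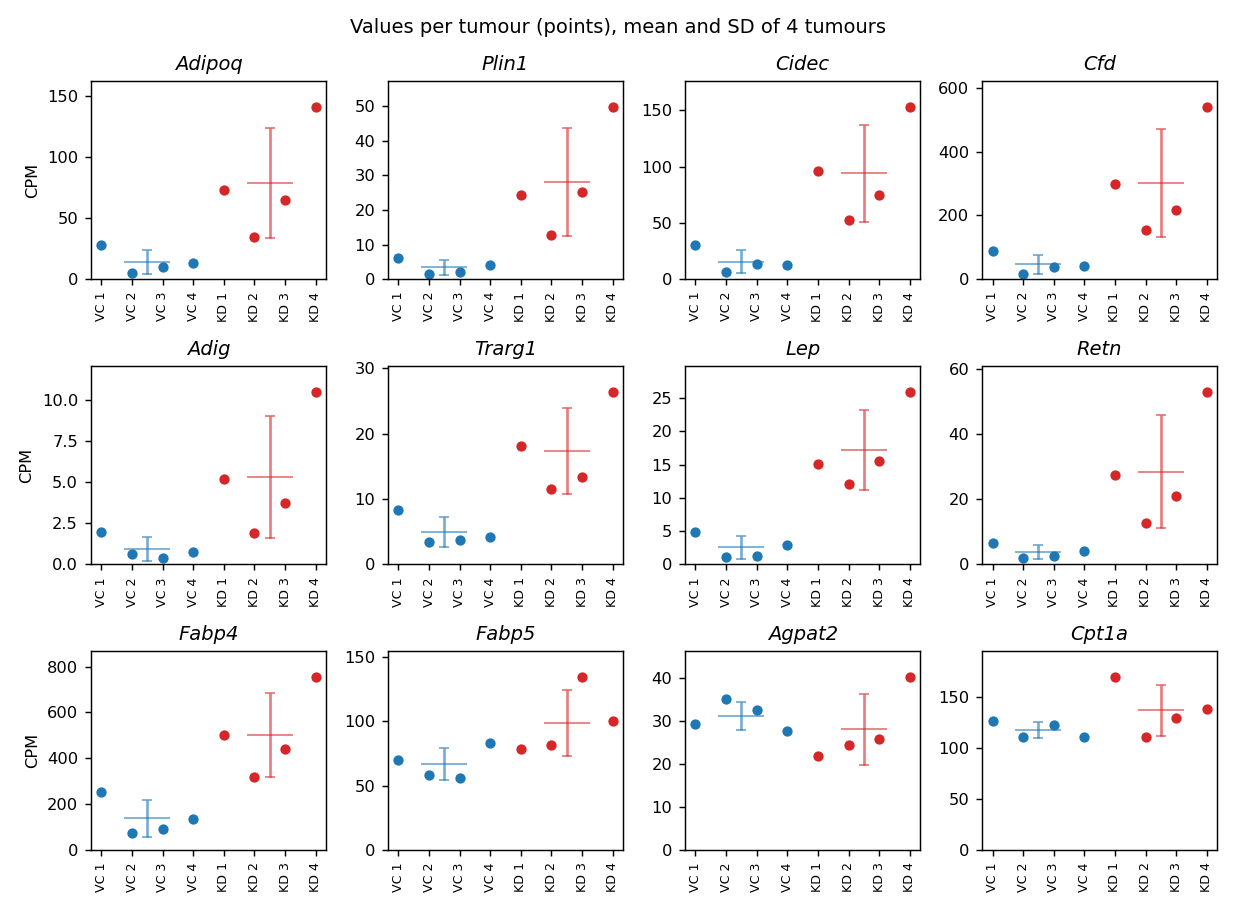
CPM (y axes, each from 0) of 12 genes in each of the 8 tumours (points; VC blue, miR-21-KD red), with the mean and SD of 4 tumours beside them. The first 8 panels are the adipocyte markers and the last 4 were picked after their values were seen: Fabp5 overlapped between groups although it passed the test, and Agpat2 and Cpt1a did not pass.

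Start regions were compared because many of these genes were higher together. RefSeq windows on GRCm38.p6, from 250 bases before to 50 after a start, were at hand for 26 of the 39 genes. In all, 12 strings (11 distinct on both strands) were searched, and the C/EBP core TTGCNNAA shown here was picked after the matches were seen. It stood on either strand in the windows of 4 of the 26 genes, Cidec, Lep, Plin1 and Pparg, and in 10.8% of 32851 windows of all genes. By gene, it stood in 15.4% of the 26 and in 12.2% of 27025 genes with a window. The palindrome TTGCGCAA, a case of the same core, stood in Lep and in 0.183% of all windows. The DR1 repeat, the element of PPAR with RXR, stood in none of the 26 and in 0.0396% of all windows. The nuclear receptor element AGGTCA, on its own, stood in 9 of the 26 (34.6%) and, by gene, in 18.1% of genes with a window. Windows of 3 droplet or hormone genes are printed 5′ to 3′ along the gene, with the C/EBP core in capitals.
Lep, chr6:29059971-29060270, plus strand: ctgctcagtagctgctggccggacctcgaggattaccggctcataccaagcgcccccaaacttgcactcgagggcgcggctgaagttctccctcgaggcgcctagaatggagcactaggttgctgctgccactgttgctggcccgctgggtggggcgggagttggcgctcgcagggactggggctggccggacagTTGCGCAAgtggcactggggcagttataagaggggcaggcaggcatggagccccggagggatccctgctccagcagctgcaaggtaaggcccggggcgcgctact
Plin1, chr7:79732727-79733026, minus strand: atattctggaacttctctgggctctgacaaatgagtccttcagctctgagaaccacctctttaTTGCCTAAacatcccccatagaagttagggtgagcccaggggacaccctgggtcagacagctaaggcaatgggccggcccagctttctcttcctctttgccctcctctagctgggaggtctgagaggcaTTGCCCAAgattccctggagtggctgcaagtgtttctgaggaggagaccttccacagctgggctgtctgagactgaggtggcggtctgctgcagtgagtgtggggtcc
Cidec, chr6:113434715-113435014, minus strand: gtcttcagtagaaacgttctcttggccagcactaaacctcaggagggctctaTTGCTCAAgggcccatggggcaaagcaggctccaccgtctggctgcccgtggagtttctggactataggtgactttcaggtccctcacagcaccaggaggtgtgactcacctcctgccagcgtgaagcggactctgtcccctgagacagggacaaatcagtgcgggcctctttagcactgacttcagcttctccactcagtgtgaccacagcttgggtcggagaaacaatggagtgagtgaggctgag
The matches began 55 bases before the start in Lep, 187 and 58 bases before it in Plin1 and 198 bases before it in Cidec. Binding was not measured.

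Of the 7 genes grouped as membrane proteins and receptors, with the cytosolic Car3, 6 were tested and all 6 were higher. Adrb3, the beta-3 adrenergic receptor that starts lipolysis, was at 2.95, 0.399, 0.630 and 1.06 CPM in VC 1 to 4 and at 10.8, 4.17, 8.12 and 17.1 CPM in KD 1 to 4. Slc2a4, the insulin-responsive glucose transporter GLUT4, was at 3.24, 0.718, 1.73 and 1.96 CPM in VC 1 to 4 and at 13.5, 4.40, 8.03 and 22.2 CPM in KD 1 to 4. Trarg1, which regulates the trafficking of GLUT4, was at 8.33, 3.51, 3.70 and 4.25 CPM in VC 1 to 4 and at 18.2, 11.6, 13.4 and 26.4 CPM in KD 1 to 4. The groups of these 3 genes did not overlap, and their log2 fold changes were 2.97 (SE 0.64) for Adrb3, 2.64 (SE 0.57) for Slc2a4 and 1.81 (SE 0.36) for Trarg1. Without VC tumour 1 the value of Adrb3 was 3.83. Car3, carbonic anhydrase 3, which is abundant in fat and slow muscle, was at 44.98, 10.7, 14.9 and 22.2 CPM in VC 1 to 4 and at 161, 65.6, 121 and 242 CPM in KD 1 to 4, a log2 fold change of 2.66 (SE 0.52). Adig, adipogenin, was at 1.99, 0.638, 0.394 and 0.736 CPM in VC 1 to 4 and at 5.17, 1.89, 3.73 and 10.5 CPM in KD 1 to 4. Aqp7, the glycerol channel of adipocytes, was at 1.70, 0.239, 0.473 and 0.409 CPM in VC 1 to 4 and at 3.56, 1.49, 3.003 and 6.97 CPM in KD 1 to 4. Both overlapped, because VC tumour 1 lay above KD tumour 2. Log2 fold changes were 2.48 (SE 0.63) for Adig and 2.38 (SE 0.65) for Aqp7, and both calls were lost without VC tumour 2 or 3. The values were then 2.33 and 2.22 for Adig and 2.09 and 2.23 for Aqp7, whose call was also lost without KD tumour 4, at 1.90. Without VC tumour 1 they were 3.16 for Adig and 3.30 for Aqp7. In edgeR the adjusted p was 0.0180 for Adig, with 0.000581 to 0.0526 over the alternatives, and 0.0226 for Aqp7, with 0.00190 to 0.0665. Acvr1c, the activin receptor ALK7, had 7, 3, 1 and 2 counts in VC and 15, 3, 8 and 20 in KD tumours and was not tested.

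All 5 genes of fatty acid uptake, carriage and activation were higher. Lpl, lipoprotein lipase, which frees fatty acids from circulating triglyceride, was at 93.5, 18.5, 30.1 and 48.9 CPM in VC 1 to 4 and at 257, 108, 172 and 287 CPM in KD 1 to 4. Cd36, a fatty acid transporter that macrophages and endothelium also carry, was at 105, 33.1, 36.6 and 52.2 CPM in VC 1 to 4 and at 226, 125, 167 and 247 CPM in KD 1 to 4. Fabp4, the fatty acid binding protein of adipocytes and macrophages (Entrez 11770, chr3:10204342-10208616), was at 250, 70.9, 89.7 and 135 CPM in VC 1 to 4 and at 501, 317, 439 and 754 CPM in KD 1 to 4. The groups were separate for all 3, and the log2 fold changes were 2.11 (SE 0.50) for Lpl, 1.75 (SE 0.39) for Cd36 and 1.88 (SE 0.42) for Fabp4. Acsl1, which activates fatty acids to acyl-CoA, was at 49.04, 26.3, 33.7 and 32.5 CPM in VC 1 to 4 and at 110, 70.6, 83.3 and 161 CPM in KD 1 to 4, a log2 fold change of 1.58 (SE 0.28). Fabp5, the epidermal homologue of Fabp4 (Entrez 16592, chr3:10012585-10016610), was at 69.6, 58.3, 56.03 and 83.05 CPM in VC 1 to 4 and at 78.4, 81.4, 135 and 100 CPM in KD 1 to 4. VC tumour 4 lay above KD tumours 1 and 2. The log2 fold change of Fabp5 was 0.56 (SE 0.20), and the adjusted p was 0.0492 in edgeR, between 0.0188 and 0.129 over the alternatives. With the replicate block the log2 fold change was 0.54 and the call was lost. The call was lost too with scaling by library size alone (adjusted p = 0.0518, edgeR) and without a filter on low counts (adjusted p = 0.0680, edgeR). It was also lost without VC tumour 1, 2 or 3 and without KD tumour 3 or 4, at log2 fold changes of 0.37 to 0.59. Fabp4 and Fabp5 are related in sequence, and how reads that fit several genes were counted is not given in the sources used here.

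Of the 6 genes of glyceride synthesis and its glycerol supply, 5 were higher. Dgat2, which adds the last fatty acid to triglyceride, was at 17.3, 7.26, 8.28 and 10.5 CPM in VC 1 to 4 and at 57.1, 30.4, 47.1 and 112 CPM in KD 1 to 4. Dgat1, which catalyses the same step and is expressed in most cells, was at 26.3, 21.6, 24.4 and 25.2 CPM in VC 1 to 4 and at 41.1, 35.5, 39.1 and 50.96 CPM in KD 1 to 4. Both were separate between groups, and the log2 fold changes were 2.51 (SE 0.43) for Dgat2 and 0.77 (SE 0.13) for Dgat1. Gpd1, which makes glycerol 3-phosphate, was at 18.5, 4.71, 7.57 and 9.81 CPM in VC 1 to 4 and at 56.3, 32.1, 53.2 and 128 CPM in KD 1 to 4. Pck1, the enzyme of glyceroneogenesis, was at 14.1, 2.63, 2.92 and 3.02 CPM in VC 1 to 4 and at 43.6, 20.7, 36.9 and 65.4 CPM in KD 1 to 4. Pcx, pyruvate carboxylase, which feeds that path, was at 17.3, 7.66, 10.3 and 10.3 CPM in VC 1 to 4 and at 43.2, 24.4, 34.2 and 74.7 CPM in KD 1 to 4. The groups of these 3 genes did not overlap either, with log2 fold changes of 2.73 (SE 0.52) for Gpd1, 2.87 (SE 0.61) for Pck1 and 1.95 (SE 0.37) for Pcx. Without VC tumour 1, which stood above the other VC tumours, the value of Pck1 was 3.86. Agpat2, which adds the second fatty acid (Entrez 67512, chr2:26593057-26604417), was at 29.3, 35.1, 32.5 and 27.7 CPM in VC 1 to 4 and at 21.8, 24.3, 25.8 and 40.2 CPM in KD 1 to 4. Its log2 fold change was -0.15 (SE 0.19) with an adjusted p of 0.543 in edgeR, 0.0607 to 0.859 over the alternatives. Only KD tumour 4 was above all VC tumours for Agpat2, and the other 3 were below all of them.

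The 3 lipases that release fatty acids in sequence were higher with no overlap. Pnpla2, the lipase ATGL of the first step, was at 94.5, 78.7, 93.3 and 97.2 CPM in VC 1 to 4 and at 159, 117, 140 and 226 CPM in KD 1 to 4. Lipe, hormone-sensitive lipase, was at 30.2, 19.7, 22.5 and 27.5 CPM in VC 1 to 4 and at 60.8, 50.5, 64.1 and 102 CPM in KD 1 to 4. Mgll, monoacylglycerol lipase, was at 45.5, 24.4, 23.7 and 33.02 CPM in VC 1 to 4 and at 97.2, 54.7, 68.4 and 111 CPM in KD 1 to 4. Log2 fold changes were 0.82 (SE 0.19) for Pnpla2, 1.48 (SE 0.23) for Lipe and 1.39 (SE 0.28) for Mgll. Of the genes of thermogenesis and mitochondrial fatty acid import, only Cpt1a was tested. Cpt1a, the import enzyme of most tissues, was at 126, 111, 123 and 111 CPM in VC 1 to 4 and at 170, 111, 130 and 138 CPM in KD 1 to 4, a log2 fold change of 0.22 (SE 0.13) and an adjusted p of 0.199 in edgeR, 0.0546 to 0.484 over the alternatives. Ucp1, the uncoupling protein of brown fat, had 0, 1, 2 and 1 counts in VC and 1, 3, 6 and 14 in KD tumours. Cpt1b, the muscle and brown fat form of Cpt1a, had 2, 1, 2 and 1 against 0, 1, 1 and 2. Without a filter, Ppargc1a was higher at an adjusted p of 0.0272 in edgeR, and the other 5 genes under the filter did not pass.

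Per length of transcript, over the union of exons of GENCODE M21, the levels of the listed genes differed widely. Fabp4 had the highest group means of the 39, at values of 152 RPKM (CPM per kilobase of exons) in VC and 561 RPKM in KD tumours. Plin2 came next in VC tumours at 144 RPKM, against 308 RPKM in KD tumours. The order of these genes in VC rests on VC tumour 1, since Plin2 was above Fabp4 in VC tumours 2, 3 and 4, where the means were 139 RPKM for Plin2 and 110 RPKM for Fabp4. Cfd was at 50.7 and 328 RPKM, and ranked 4 in VC and 2 in KD tumours. Adipoq moved from rank 14 to rank 7, at 11.0 and 60.8 RPKM. Agpat2 moved from rank 9 to rank 19, at 20.9 and 18.8 RPKM. These ranks are descriptions and were not tested.

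The genes shared an order of tumours inside each group. VC tumour 1 was the highest VC tumour for 28 of the 33 tested members and for 26.9% of all tested genes. VC tumour 2 was the lowest for 26 of the 33 and for 23.6% of all tested genes. Among KD tumours, number 4 was the highest for 30 of the 33 and for 19.5% of all genes, and number 2 was the lowest for 29 and for 33.3%. The sum of all 39 genes was 917 to 1814 CPM in VC and 2278 to 5140 CPM in KD tumours. The 33 genes are measured in the same 8 libraries, so their shared order is not 33 separate observations.

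Each gene was also set against Adipoq in the same tumour, a reference picked after its values were seen. Over all 8 tumours the range of such a ratio includes the difference between groups that chose the list, so a gene with a fold change near that of Adipoq has a narrow ratio. Adipoq spanned 4.70 log2 units over the 8 tumours, and the ratios of the 32 other tested genes to it spanned from 0.49 for Gpd1 to 4.51 for Agpat2. Inside a group the difference between groups has no part. Among VC tumours Adipoq spanned 2.37 log2 units and Gpd1 1.98, and their ratio spanned 0.39. Among KD tumours the same values were 2.03, 1.99 and 0.27. For Car3 the ratio spanned 0.41 in VC and 0.35 in KD tumours, while Car3 itself spanned 2.07 and 1.89. For Agpat2, which varied little, the ratio spanned 2.63 and 1.30 while the gene spanned 0.34 and 0.88. The ratio was narrower than the gene in 20 of 32 genes among VC tumours, in 22 among KD tumours and in 16 in both. The values rest on 4 tumours a group and were not tested.

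**Figure D3:**
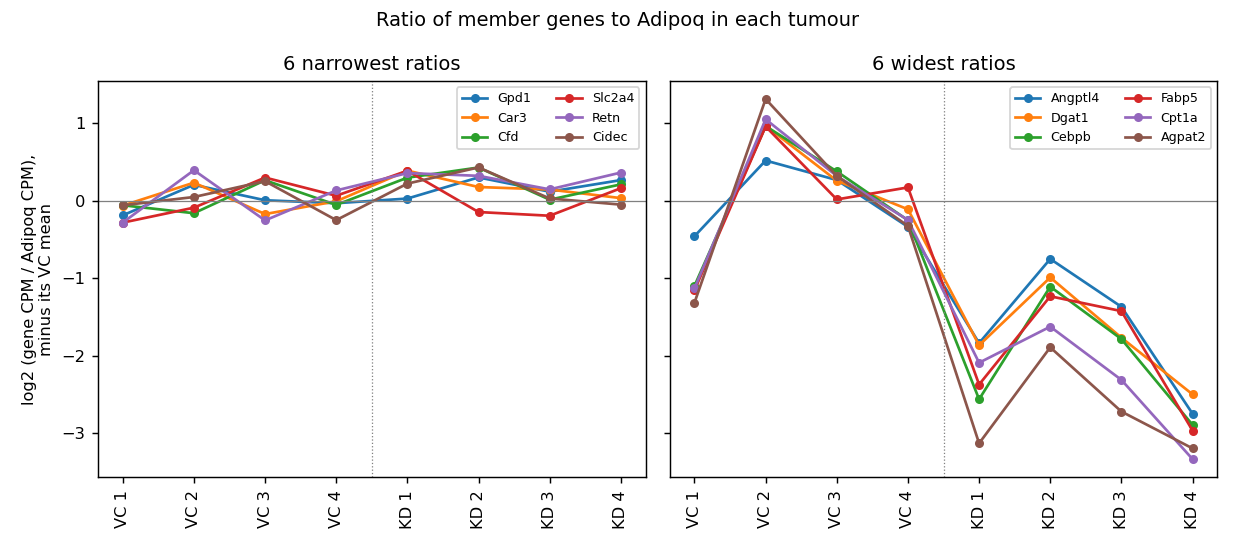
Log2 of each gene's CPM over that of Adipoq in each tumour, minus its mean over the 4 VC tumours (y axis), for the 6 genes of narrowest and the 6 of widest range over 8 tumours; lines join the values of 1 gene and tumours have no order. Ranges run from 0.49 to 0.68 on the left and from 3.27 to 4.51 on the right, and both include the difference between groups that chose the list.

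Markers of several other cell types differed between the same tumours, and the counts below stand beside 19.6% of all tested genes higher and 19.5% lower. The 8 adipocyte markers, all of them members, summed to 36.5 to 175 CPM in VC and 292 to 999 CPM in KD tumours. The 11 macrophage and monocyte markers summed to 3027 to 4229 CPM and 5762 to 8913 CPM, with 8 of 11 higher, and Mrc1 was the most abundant. The 11 markers of fibroblasts and mesenchymal progenitors summed to 2832 to 7235 CPM and 9061 to 20333 CPM, with 7 of 11 higher and Col3a1 the most abundant. The other 4 did not pass. Col3a1 alone had means of 2748 CPM in VC and 7332 CPM in KD tumours, so much of the fibroblast sum was RNA of this collagen. The macrophage and fibroblast sums were 2.09 and 2.59 times as high in KD tumours by group means, beside 6.18 times for adipocyte markers. The adipocyte markers belong to a list chosen on this contrast, so these ratios do not rank the cell types. The 12 endothelial markers summed to 519 to 872 CPM and 738 to 1062 CPM, with 2 of 12 higher. Of the 11 mammary secretory epithelium markers, 9 were tested, 3 were higher and 2 lower, and the sums were 1472 to 2189 CPM and 570 to 1590 CPM. Most of that sum came from the keratins Krt8 and Krt18, whose means were 808 and 1022 CPM in VC against 439 and 460 CPM in KD tumours. The mean sum was 0.604 times as high in KD tumours, while the median log2 fold change of the 9 tested genes was 1.64. It was -0.01 over the 7 left without genes over the filter's level in all KD but not all VC tumours. The sum thus does not stand for the whole list. Krt8 did not pass in the main fit, and the 2 lower genes were Krt18 and Csn1s1. Lalba and Btn1a1 did not pass there either, but under some alternatives Krt8 passed as lower and Lalba and Btn1a1 as higher. Of the higher genes, Epcam was at 25.6 ± 17.1 CPM in VC against 97.6 ± 39.3 CPM in KD tumours (SD, n = 4). Krt18 lost its call under 7 of 16 alternatives, Csn1s1 under 5, Epcam under 2, and the other higher genes, Csn3 and Elf5, under 9 each. These genes were named after their values were seen. Skeletal muscle markers summed to 11.2 to 16.4 CPM and 16.3 to 29.6 CPM. Of these 12, 5 were tested, 3 were higher and Myh1 was lower. Atp2a1 and Ttn were over the filter's level in all KD but not all VC tumours, and Myh1 in all VC but not all KD tumours. Atp2a1 lost its call under 6 and Myh1 under 4 of 15 alternatives. The 7 others, Acta1 and Ckm included, were under the filter. No marker of any list was at 0 in all 8 tumours. The part of these cells in the values of Cd36, Fabp4, Fabp5, Lpl and the other members was not tested.

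**Figure D4:**
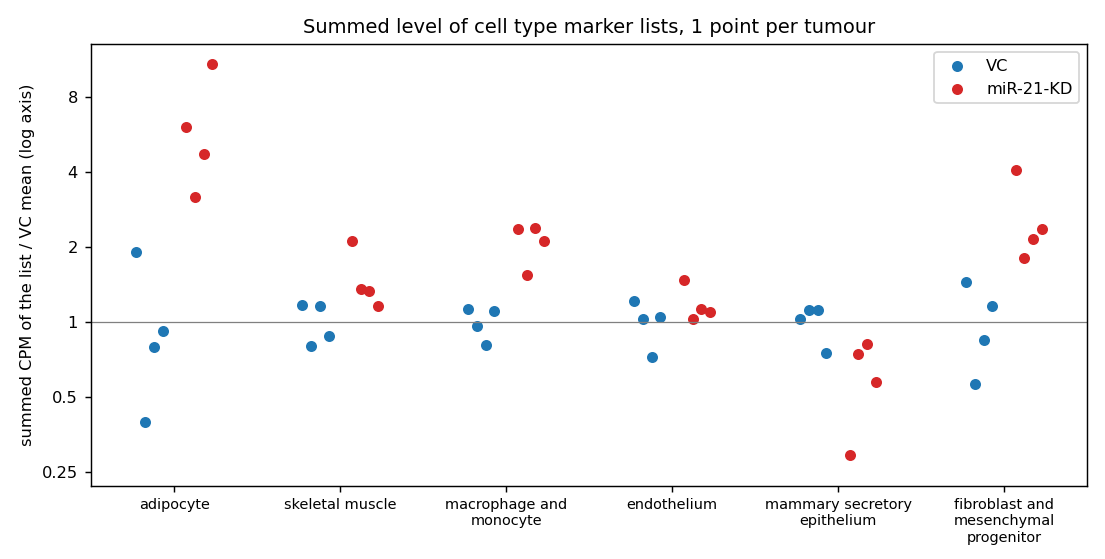
Summed CPM of 6 lists of cell type markers in each tumour (points), divided by the mean of the 4 VC tumours (log axis, VC blue, miR-21-KD red). The adipocyte sums of the 4 KD tumours lie above those of all VC tumours, as do the macrophage and the fibroblast sums, while the endothelial sums overlap.

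Other genes of the fat cell were taken from 4 lists of 115 genes, of which 99 were tested. Of these, 44 were higher and 9 lower, against 19.6% and 19.5% of all tested genes, and the median log2 fold change was 0.35. Klf15 and 9 others of the 44, 10 in all, were over the filter's level in all KD tumours but not in all VC tumours. Their calls are thus not independent of the filter. Without these 10, 34 of 89 were higher and the median was 0.27. The count of higher genes was 26 without VC tumour 3, where 9.90% of all tested genes were higher, and 29 without KD tumour 4, where 12.1% were. The count of lower genes was 5 without KD tumour 3, where 12.2% of all tested genes were lower. The lower genes are all named below, which was chosen after their values were seen. Of 27 adipogenesis regulators, 9 were higher (33.3%) and 1 was lower (3.70%). Without 3 of them over the filter's level in all KD but not all VC tumours, 6 of 24 were higher. The lower gene, Bmp2, lost its call under 12 of 16 alternatives. Klf15, a late activator of adipogenesis, had group means of 0.817 ± 0.191 CPM (VC) and 4.54 ± 2.04 CPM (KD; SD, n = 4), a log2 fold change of 2.45 (SE 0.38). Cebpd, which acts early with Cebpb, had group means of 10.8 ± 3.19 CPM (VC) and 29.1 ± 3.51 CPM (KD; SD, n = 4), a log2 fold change of 1.43 (SE 0.22). Stat5b, a signal transducer of growth hormone and prolactin, had group means of 78.2 ± 1.30 CPM (VC) and 109 ± 10.7 CPM (KD; SD, n = 4), a log2 fold change of 0.48 (SE 0.09). The other 17 did not pass.

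Of 28 other genes of droplets, lipolysis and glycerides, 12 were higher (42.9%) and 4 lower (14.3%), beside 19.6% and 19.5% of all tested genes. Without 1 gene over the filter's level in all KD but not all VC tumours, 11 of 27 were higher. Gpam, the first acyltransferase of glyceride synthesis, had group means of 8.80 ± 1.22 CPM (VC) and 21.6 ± 3.31 CPM (KD; SD, n = 4), a log2 fold change of 1.29 (SE 0.16). Bscl2, seipin, which shapes nascent droplets, had group means of 34.5 ± 5.79 CPM (VC) and 88.7 ± 21.6 CPM (KD; SD, n = 4), a log2 fold change of 1.36 (SE 0.20). Acsl3, an acyl-CoA synthetase of droplets in many cells, had group means of 90.8 ± 19.05 CPM (VC) and 34.3 ± 5.81 CPM (KD; SD, n = 4), a log2 fold change of -1.40 (SE 0.17). The other 3 lower genes were Ldah, Acsl4 and Slc27a1, of which Acsl4 lost its call under 2 and Slc27a1 under 4 of 16 alternatives. Of the acyl-CoA synthetases tested, Acsl1 was thus higher, Acsl3 and Acsl4 were lower, and Acsl5 did not pass, with a log2 fold change of -0.19 (SE 0.11).

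Of 22 other genes enriched in adipocytes, 14 were higher (63.6%) and 2 lower (9.09%), with a median log2 fold change of 1.63. Lgals12, Thrsp, Nat8l and Apoc1 were over the filter's level in all KD but not all VC tumours. Without them, 10 of 18 were higher and the median was 1.08. Scd1, the desaturase of stearate, had group means of 339 ± 175 CPM (VC) and 1498 ± 683 CPM (KD; SD, n = 4), a log2 fold change of 2.14 (SE 0.41). Nnat, neuronatin, had group means of 3.88 ± 2.77 CPM (VC) and 25.8 ± 13.7 CPM (KD; SD, n = 4), a log2 fold change of 2.73 (SE 0.55), which was 3.35 without VC tumour 1. Cavin1, a coat protein of caveolae in fat and vessels, had group means of 501 ± 51.4 CPM (VC) and 302 ± 54.1 CPM (KD; SD, n = 4), a log2 fold change of -0.73 (SE 0.14). Adipor2, a receptor of adiponectin, was the other lower gene and lost its call under 7 of 16 alternatives. Of 22 genes of brown and beige fat and fatty acid oxidation, 9 were higher (40.9%) and 2 lower (9.09%), with a median of 0.47, again beside 19.6% and 19.5% of all tested genes. Without 2 genes over the filter's level in all KD but not all VC tumours, 7 of 20 were higher and the median was 0.29. Tmem26, listed as a beige marker, had group means of 22.4 ± 13.01 CPM (VC) and 91.7 ± 21.3 CPM (KD; SD, n = 4), a log2 fold change of 2.03 (SE 0.40). Esrra, a nuclear receptor of oxidative genes, had group means of 22.2 ± 2.26 CPM (VC) and 33.6 ± 4.999 CPM (KD; SD, n = 4), a log2 fold change of 0.60 (SE 0.13). Dio2, which activates thyroid hormone in brown fat, had group means of 48.99 ± 6.50 CPM (VC) and 10.1 ± 4.38 CPM (KD; SD, n = 4), a log2 fold change of -2.27 (SE 0.27). Acadm, an oxidation enzyme, was the other lower gene and lost its call under 9 of 16 alternatives.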

How the data were processed

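RNA of 8 whole tumours was sequenced as total RNA. The authors deposited raw read counts per gene by Entrez identifier, without normalization. The submitters' processing notes name Subread, featureCounts, edgeR and limma with the build mm10. The annotation, the strand setting and the treatment of reads that fit several genes are not given in the sources used here. Symbols and positions came from the RefSeq annotation of GRCm38.p6, which shares its coordinates with mm10, and matched 25275 of 27179 identifiers.

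Counts were fitted in R 4.3.3 with edgeR 4.0.16 (filterByExpr with a minimum count of 10 and a minimum total of 15, TMM factors, robust quasi-likelihood test of 4 miR-21-KD against 4 VC tumours). P-values were adjusted by Benjamini-Hochberg over 14382 genes, with a threshold of 0.05. The members and the companion and marker lists were chosen with earlier results of these data known. Every member was named, with values per tumour for those past the threshold, as were the 3 companion genes of smallest adjusted p in each list and the most abundant markers. Alternatives were DESeq2 1.42.0, limma-voom (3.58.1), scaling by upper quartiles or by library size alone, a replicate block, tests without a filter on low counts or with at least 10 counts in every tumour, an adjusted p under 0.01 and each tumour left out.

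The labels number the tumours 1 to 4 in both groups. After removal of group means, tumours of the same number correlated at 0.272, 0.421, 0.175 and 0.376, and other combinations at a mean of -0.105. Removing group means ties these values together, so the negative mean is not separate evidence. From the data alone, the numbers were taken as a possible pairing, which no label names. The main fit left it out, and the replicate block was an alternative. No 2 tumours of a group agreed within sampling noise (chi-square per degree of freedom 12.6 to 70.7). On simulated counts for this comparison with 14248 genes run, the test found 72% of 2-fold and 90% of 4-fold changes, with 7 false calls. The simulation changed far fewer genes than were called here, none of very low counts, and drew tumours independently. These rates need not hold for the real data.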

Additional observations from a re-analysis of the deposited data

Results flagged for a closer look

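In 4 of the 66 groups of 4 tumours examined, the most extreme tumour stood apart from the other 3 by more than Dixon's 95% limit. Chance alone gives about 1 in 20 such groups. Pck1 was at 14.1 CPM in VC tumour 1, while the other VC tumours were at 2.63 to 3.02 CPM. Trarg1 was at 8.33 CPM in VC tumour 1 and at 3.51 to 4.25 CPM in the others. Aqp7 was at 1.70 CPM in VC tumour 1 and at 0.239 to 0.473 CPM in the others. Angptl4 was at 212 CPM in miR-21-KD tumour 3 and at 172 to 177 CPM in the other miR-21-KD tumours. VC tumour 1 was also the highest VC tumour for 28 of the 33 tested members.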

How the results depend on the processing

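No alternative reversed the direction of a tested member or of the companion and marker genes that the text names. The number of members higher in miR-21-KD tumours was 31 and was 26 to 31 with a tumour left out, where Ppargc1a newly passed in 4 of the fits. Of the 33 members tested with all tumours, 26 to 30 were higher in those fits, where 9.90% to 22.5% of all tested genes were higher. The number was 30 with the replicate block, which changed no other call of a member than that of Fabp5, and 17 at an adjusted p under 0.01. The number of members lower was 0 under every alternative and with each tumour left out, where 10.2% to 24.3% of all tested genes were lower. The median log2 fold change of the tested members was 1.95, from 1.62 without miR-21-KD tumour 4 to 2.51 without VC tumour 1. The number of companion genes higher was 44 and was 26 to 48 with a tumour left out, 26 without VC tumour 3 and 29 without miR-21-KD tumour 4. The number lower was 9 and was 5 to 9, 5 without miR-21-KD tumour 3. At an adjusted p under 0.01 these counts were 14 and 4. Members that lost the call were Cebpb, Angptl4, Adig, Aqp7 and Fabp5, apart from the stricter threshold, where 14 lost it. A stricter threshold lowers the counts by construction, and the cause of the other changes was not tested. Depth limited the 6 members under the filter, where 0 to 31 counts per tumour leave changes undetectable unless large.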
